A study of Homo sapiens with 12 samples.

Results

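Collagens are the main structural proteins of the extracellular matrix. Each molecule is a triple helix of alpha chains, and each chain has its own gene. Fibrillar collagens (types I, II, III, V, XI and XXVII) assemble into banded fibrils, type IV chains form the meshwork of basement membranes, and the remaining types decorate fibrils, form other networks or span the cell membrane. Mesenchymal breast cancer cells make several of them. Inflammatory cytokines and the AP-1 transcription factor are known to act on matrix genes and on the proteases that degrade matrix.

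The genes described here are 33 collagen chain genes chosen by name. A chain was measured where the array held a probe set that carries its symbol alone, and 31 of the 33 had 1 such probe set, among 17958 genes in all. They comprise 9 fibrillar chains, 6 basement membrane chains and 16 chains of other types. COL7A1 lay only on a probe set shared with other symbols and COL17A1 had none named here, so both were not analysed here. RNA came from BT549, a single triple-negative breast cancer line of mesenchymal character. Cells were transfected with siRNA for 72 hours and then kept for 6 hours with TNFα (tumour necrosis factor alpha, an inflammatory cytokine) or vehicle. The 4 groups of 3 arrays were cells with a pool of siRNAs against c-Jun (the AP-1 subunit encoded by JUN) and TNFα, cells with c-Jun siRNA and vehicle, cells with control siRNA and TNFα, and cells with control siRNA and vehicle. Every group had therefore been transfected. The design asks how TNFα changes expression, how c-Jun siRNA changes it, and whether the TNFα response differs with c-Jun siRNA.

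Values are log2 expression per probe set, so a difference of 1 is a doubling. A level can be compared between groups for 1 gene, not between genes. Array medians lay between 5.62 and 5.68, and 14 of the 31 chains had 12-array means below the lowest of them. JUN was 10.36, 10.33 and 10.39 with c-Jun siRNA and TNFα, and 11.12, 11.05 and 11.05 with control siRNA and TNFα. It was 9.82, 9.85 and 9.81 with c-Jun siRNA and vehicle, against 10.36, 10.35 and 10.36 with control siRNA and vehicle, so c-Jun siRNA left 61.1% of the JUN signal under TNFα and 69.5% under vehicle. The mesenchymal markers VIM, ZEB1 and FN1 were high (12-array means of 12.66, 10.44 and 11.40) and ESR1, PGR, CDH1 and EPCAM low (3.72 to 4.87), while ERBB2, listed as low in this line, was at 8.81. Among 7 fibroblast markers THY1 was high (11.57), FAP was at 6.03, and the matrix proteoglycans DCN and LUM were at 3.36 and 3.28. Of the 7, c-Jun siRNA raised 3 and lowered 1 with TNFα, and raised 2 and lowered 1 with vehicle. FAP was higher in both, and over all genes 28.5% and 28.9% were called. The summed level of the fibroblast markers was 11.68 to 11.77 with c-Jun siRNA, against 11.53 to 11.66 with control siRNA. Its part in the results was not tested. The endothelial markers PECAM1 and CDH5 (4.67 and 4.34) and the leukocyte markers PTPRC and CD3E (3.81 and 3.97) were dim. The endothelial marker TEK was at 6.30, above every array median, and the leukocyte marker ITGAM at 5.05, below them. Their lists had summed levels of 7.42 to 7.54 with c-Jun siRNA against 6.97 to 7.14 with control siRNA (5 endothelial markers, TEK called), and of 6.55 to 6.66 with TNFα against 6.30 to 6.49 with vehicle (4 leukocyte markers, where ITGAM was called higher under both siRNAs and CD14 lower with control siRNA, -0.30, adjusted p = 0.0254).

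The array names hold a position code, and its number (5, 7 or 9) is taken here for a plate column, an inference. The c-Jun siRNA TNFα arrays lay in columns 9 (2 arrays) and 7 (1 array), and the 3 c-Jun siRNA vehicle arrays in column 5. Of the control siRNA arrays, TNFα arrays lay in columns 7 (2) and 9 (1), and vehicle arrays in columns 7 (2) and 5 (1). TNFα and vehicle arrays with c-Jun siRNA thus shared no column, and column and treatment cannot be told apart by pairs of arrays there. Each comparison of c-Jun with control siRNA within a column had 1 array in 1 of its groups. A call kept or lost within a column therefore cannot decide whether a c-Jun siRNA effect holds. The 2 c-Jun siRNA arrays of column 9 were replicates 1 and 3. The name of c-Jun siRNA TNFα replicate 3 reads as a second run of replicate 1, and values with these arrays averaged into 1 sample stand beside the named genes that gain or lose a call by it. Whether the replicates came from separate cultures is not stated in the labels. The p-values therefore reflect only how far these arrays of a group differ, which may be technical.

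TNFα with control siRNA changed 10 of the 31 chains at a limma adjusted p under 0.05, 6 higher and 4 lower, where 35.7% of all genes changed. The highest rises were in COL3A1 (0.95 ± 0.058, log2 fold change ± SE), COL5A2 (0.60 ± 0.074) and COL4A1 (0.48 ± 0.066). The deepest falls were in COL21A1 (-0.50 ± 0.075), COL13A1 (-0.42 ± 0.13) and COL15A1 (-0.27 ± 0.047). In the direction of the call, 13.8% of all genes were higher and 21.9% lower. By class, TNFα raised 2 and lowered 1 of the 9 fibrillar chains, raised 2 of the 6 basement membrane chains, and raised 2 and lowered 3 of the 16 others. The median log2 fold change was 0.01 over the 31 chains and -0.02 over all genes. In bulk RNA, fewer cells of a kind and less RNA per cell cannot be told apart, which holds for every comparison here.

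With c-Jun siRNA, TNFα changed 7 of the 31 chains, 3 higher and 4 lower, where 29.6% of all genes changed (11.3% higher and 18.3% lower). COL5A2 (0.39 ± 0.074), COL3A1 (0.38 ± 0.058) and COL4A1 (0.34 ± 0.066) were higher. COL15A1 (-0.40 ± 0.047), COL4A5 (-0.26 ± 0.058), COL21A1 (-0.24 ± 0.075) and COL1A2 (-0.20 ± 0.044) were lower. That is 2 higher and 1 lower among fibrillar chains, 1 and 1 among basement membrane chains, and 0 and 2 among the others. With the position column as a fixed block 2 of the 7 calls remained, COL15A1 (-0.39, adjusted p = 0.00664) and COL4A5 (-0.38, adjusted p = 0.032). With c-Jun siRNA TNFα replicates 1 and 3 averaged, the 7 calls remained and COL27A1 was added (0.24, adjusted p = 0.0451).

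c-Jun siRNA with TNFα changed 7 of the 31 chains, 2 higher and 5 lower, where 28.5% of all genes changed (14.1% higher and 14.4% lower). Higher were COL1A2 (0.62 ± 0.044) and COL6A2 (0.16 ± 0.045). Lower were COL3A1 (-0.71 ± 0.058), COL4A5 (-0.68 ± 0.058), COL21A1 (-0.55 ± 0.075), COL13A1 (-0.36 ± 0.13) and COL5A2 (-0.22 ± 0.074). By class these were 1 higher and 2 lower fibrillar chains, 1 lower basement membrane chain, and 1 higher and 2 lower chains of other types. With c-Jun siRNA TNFα replicates 1 and 3 averaged, 5 of the 7 remained, and COL5A2 (adjusted p = 0.0889) and COL13A1 (adjusted p = 0.194) did not pass.

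c-Jun siRNA with vehicle changed 10 of the 31 chains, 7 higher and 3 lower, where 28.9% of all genes changed (14.4% higher and 14.5% lower). After centring of the arrays on their medians, 16.8% of all genes were higher and 10.7% lower, and the members' split stayed at 7 and 3. COL1A2 rose by 0.67 ± 0.044, COL12A1 by 0.31 ± 0.042 and COL4A6 by 0.30 ± 0.068. COL21A1 (-0.81 ± 0.075), COL13A1 (-0.59 ± 0.13) and COL4A5 (-0.50 ± 0.058) fell. By class these were 1 higher fibrillar chain, 2 higher and 1 lower basement membrane chains, and 4 higher and 2 lower chains of other types. The position column as a fixed block left 4 calls, COL1A2, COL4A5, COL12A1 and COL21A1.

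The interaction asks whether the TNFα effect differs between c-Jun siRNA and control siRNA. It was called for 2 of 31 chains, COL3A1 (-0.57 ± 0.082, adjusted p = 0.000187) and COL12A1 (-0.29 ± 0.059, adjusted p = 0.00505), both lower, where 5.47% of all genes were called (1.88% higher and 3.59% lower). Both calls held in the 27 alternatives other than a stricter threshold, which are also the ones counted for single genes below. A threshold that adds a log2 fold change of at least 0.5 keeps COL3A1 and drops COL12A1. The other 29 chains did not pass. Chains whose TNFα effect was called with only 1 siRNA, such as COL4A5 (interaction -0.18 ± 0.082, adjusted p = 0.289) and COL6A1 (-0.11 ± 0.057, adjusted p = 0.356), are therefore not shown to respond differently. Pairs of comparisons share arrays (both effects measured without the other treatment use the control siRNA vehicle arrays), so their values are only set side by side.

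**Figure D1:**
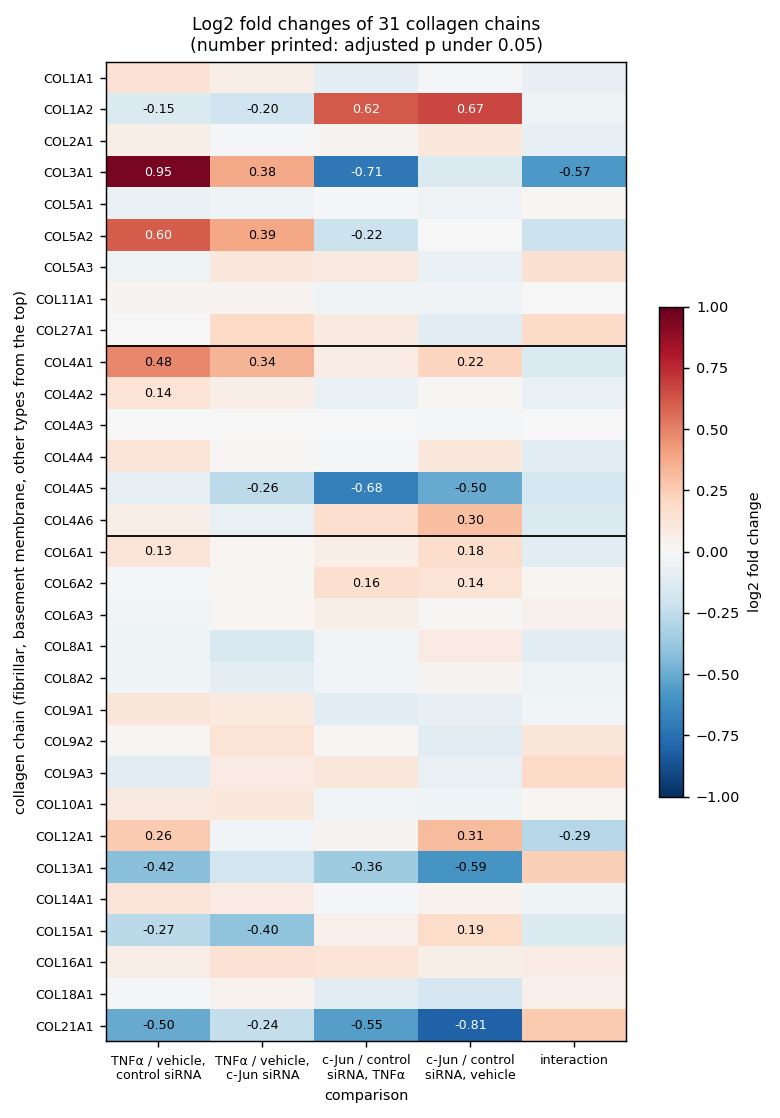
Log2 fold change of each of the 31 measured collagen chains (rows, grouped by class and separated by black lines) in the 4 pairwise comparisons and the interaction (columns), on a colour scale from -1 to 1. Numbers are printed where the limma adjusted p was under 0.05, and 18 rows carry no number.

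Among fibrillar chains, COL3A1 had the largest TNFα effect with control siRNA, while COL5A2 and COL3A1 had nearly equal effects with c-Jun siRNA (0.39 and 0.38). COL3A1 encodes the only chain of type III collagen, which is found beside type I in extensible tissues and in wounds. COL3A1 was 7.75, 7.66 and 7.70 under TNFα and 7.40, 7.25 and 7.32 under vehicle in cells with c-Jun siRNA, against 8.50, 8.44 and 8.31 under TNFα and 7.44, 7.48 and 7.47 under vehicle in cells with control siRNA. The control siRNA TNFα arrays lay above all others, the c-Jun siRNA TNFα arrays came next, and both vehicle groups were lowest and did not overlap each other. TNFα raised COL3A1 by 0.95 with control siRNA (1.94-fold, adjusted p = 2.06e-10) and by 0.38 with c-Jun siRNA (1.30-fold, adjusted p = 4.39e-05). c-Jun siRNA lowered it under TNFα by a log2 difference of -0.71 (61.0% of control, adjusted p = 2.5e-08), and the difference under vehicle was -0.14 (adjusted p = 0.0826). Within column 7 the TNFα effect with control siRNA was 0.91 (adjusted p = 6.75e-05). The c-Jun siRNA effect under TNFα was -0.71 within column 7 and -0.78 within column 9, each with 1 array in a group. With the column as a fixed block the TNFα effect with c-Jun siRNA was 0.32 (adjusted p = 0.0685).

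COL5A2 encodes a chain of type V collagen, which nucleates fibrils and limits their width. By start coordinate in the GRCh38.p14 annotation, it is the protein-coding gene next to COL3A1 on chromosome 2. COL5A2 was 7.03, 7.06 and 6.91 under TNFα and 6.70, 6.53 and 6.61 under vehicle in cells with c-Jun siRNA, against 7.28, 7.23 and 7.14 under TNFα and 6.49, 6.73 and 6.62 under vehicle in cells with control siRNA. TNFα arrays lay above vehicle arrays under both siRNAs, and the 2 vehicle groups overlapped. TNFα raised it by 0.60 with control siRNA (adjusted p = 2.77e-06; 0.58 within column 7, adjusted p = 0.00434) and by 0.39 with c-Jun siRNA (adjusted p = 0.000416; 0.40 with the column as a fixed block, adjusted p = 0.108). The difference between those effects was -0.21 ± 0.10 and did not pass (adjusted p = 0.33). Under TNFα the c-Jun siRNA effect of -0.22 (adjusted p = 0.0364) held in 18 of 29 alternatives and ended without control siRNA TNFα replicate 1 or 2 or c-Jun siRNA TNFα replicate 1 or 3, and within columns it was -0.13 (column 7, adjusted p = 0.562) and -0.30 (column 9, adjusted p = 0.195).

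COL1A2 encodes the second chain of type I collagen, the most abundant collagen of most tissues. It was 9.86, 9.89 and 9.81 under TNFα and 10.03, 10.06 and 10.06 under vehicle in cells with c-Jun siRNA, against 9.34, 9.23 and 9.15 under TNFα and 9.36, 9.43 and 9.36 under vehicle in cells with control siRNA. All 6 c-Jun siRNA arrays lay above all 6 control siRNA arrays. c-Jun siRNA raised COL1A2 by 0.62 with TNFα (1.53-fold, adjusted p = 4.47e-09) and by 0.67 with vehicle (1.59-fold, adjusted p = 1.36e-09). Within columns, each with 1 array in a group, these effects were 0.70 (column 7) and 0.50 (column 9) with TNFα, and 0.69 (column 5) with vehicle. TNFα changed it by -0.20 with c-Jun siRNA (adjusted p = 0.00183) and by -0.15 with control siRNA (adjusted p = 0.0143). The call with control siRNA ended without control siRNA vehicle replicate 2 or TNFα replicate 3, and that with c-Jun siRNA ended with the column as a fixed block (-0.26, adjusted p = 0.069). The interaction was -0.05 (adjusted p = 0.767).

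COL1A1, whose chain joins that of COL1A2 in type I collagen, did not pass in any comparison. Its values were 7.47, 7.53 and 7.48 under TNFα and 7.42, 7.39 and 7.48 under vehicle in cells with c-Jun siRNA, against 7.64, 7.45 and 7.66 under TNFα and 7.45, 7.48 and 7.39 under vehicle in cells with control siRNA. The c-Jun siRNA effect on it was -0.09 ± 0.061 with TNFα (adjusted p = 0.306) and -0.01 ± 0.061 with vehicle (adjusted p = 0.931). The TNFα effect of 0.14 with control siRNA (adjusted p = 0.0742) passed in 4 of 29 alternatives. The difference between the COL1A2 and COL1A1 log2 values was 2.36 ± 0.030 (SD, n = 3) with c-Jun siRNA and TNFα and 2.62 ± 0.044 with c-Jun siRNA and vehicle, against 1.65 ± 0.15 with control siRNA and TNFα and 1.94 ± 0.036 with control siRNA and vehicle. These differences set probe sets of 2 genes against each other and carry meaning only between groups.

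**Figure D2:**
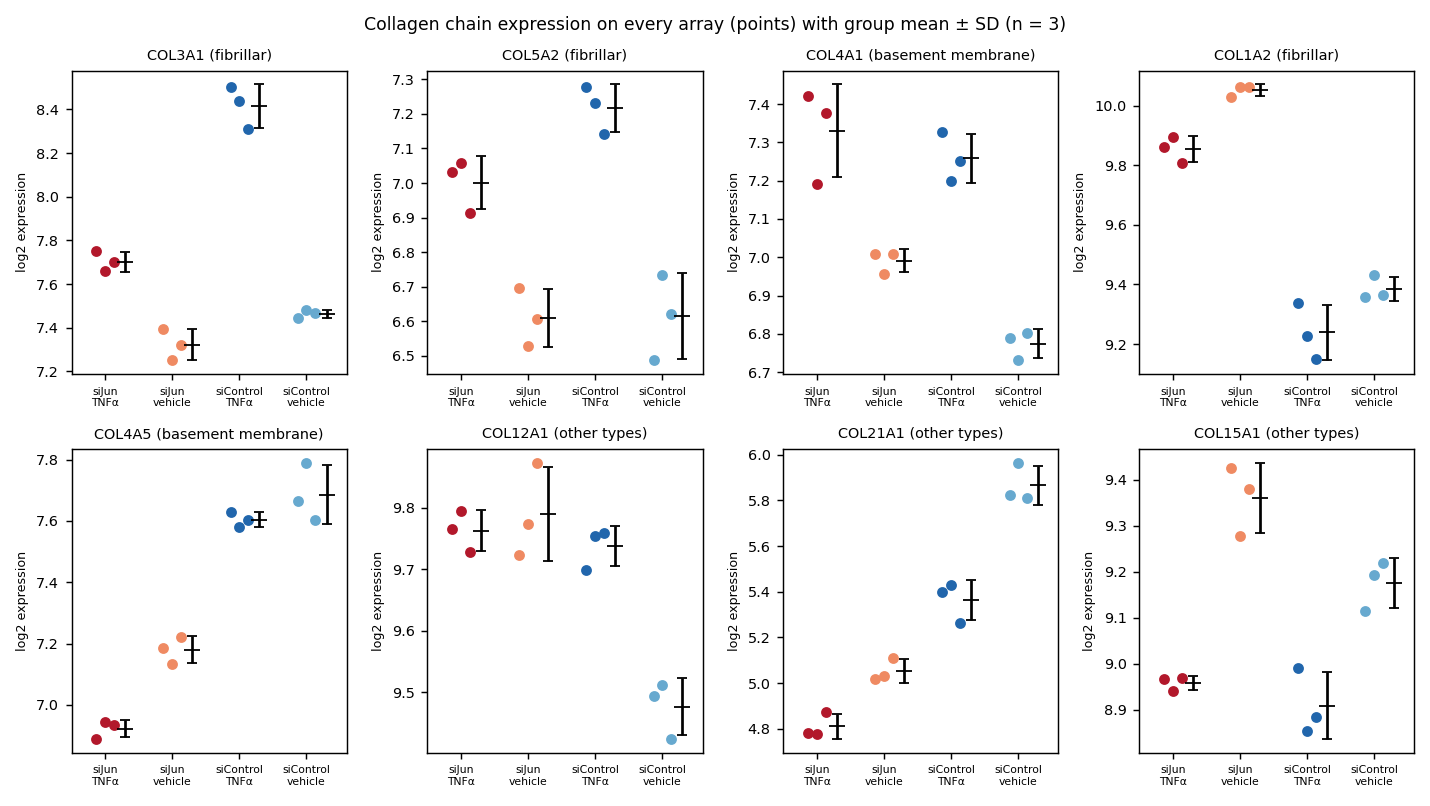
Log2 expression on every array (points) for 8 chains, with group mean ± SD beside the points (n = 3 arrays per group; siJun is c-Jun siRNA, siControl control siRNA). The vertical scales differ between panels and do not start at 0. COL3A1 is highest in control siRNA TNFα arrays, COL1A2 is higher in all c-Jun siRNA arrays, and COL12A1 is low in the control siRNA vehicle arrays alone.

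Basement membrane chains are arranged in head-to-head gene pairs, COL4A1 with COL4A2 and COL4A5 with COL4A6, whose promoters run in opposite directions from shared sequence. The chains of the first pair form the type IV network of nearly all basement membranes, and those of the second a network of smooth muscle and certain epithelia. The 4 RefSeq promoter windows (GRCh38.p14, 250 bases before to 50 after the start of each gene, on the strand of the gene) are printed because partners share bases here and yet differed in expression. Capitals mark CCAAT boxes, searched as CCAAT on both strands, so that ATTGG is a box on the opposite strand.

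COL4A1 (chr13:110307108-110307407, minus strand): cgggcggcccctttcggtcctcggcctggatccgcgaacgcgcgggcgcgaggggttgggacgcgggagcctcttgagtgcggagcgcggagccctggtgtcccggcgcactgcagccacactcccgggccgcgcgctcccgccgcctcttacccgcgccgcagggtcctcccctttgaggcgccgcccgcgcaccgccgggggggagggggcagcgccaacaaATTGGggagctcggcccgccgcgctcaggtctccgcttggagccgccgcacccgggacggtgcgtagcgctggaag
COL4A2 (chr13:110307034-110307333, plus strand): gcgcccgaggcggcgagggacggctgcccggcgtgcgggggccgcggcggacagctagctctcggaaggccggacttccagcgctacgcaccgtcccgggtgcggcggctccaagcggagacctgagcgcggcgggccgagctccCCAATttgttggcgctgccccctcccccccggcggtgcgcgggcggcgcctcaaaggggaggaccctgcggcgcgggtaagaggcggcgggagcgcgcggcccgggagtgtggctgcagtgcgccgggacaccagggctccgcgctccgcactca
COL4A5 (chrX:108439588-108439887, plus strand): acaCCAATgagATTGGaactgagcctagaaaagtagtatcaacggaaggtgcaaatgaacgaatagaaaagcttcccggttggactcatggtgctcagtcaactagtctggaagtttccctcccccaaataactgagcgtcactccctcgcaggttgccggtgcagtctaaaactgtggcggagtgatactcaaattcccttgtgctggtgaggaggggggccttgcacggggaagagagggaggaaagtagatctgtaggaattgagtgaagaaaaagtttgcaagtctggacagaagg
COL4A6 (chrX:108439409-108439708, minus strand): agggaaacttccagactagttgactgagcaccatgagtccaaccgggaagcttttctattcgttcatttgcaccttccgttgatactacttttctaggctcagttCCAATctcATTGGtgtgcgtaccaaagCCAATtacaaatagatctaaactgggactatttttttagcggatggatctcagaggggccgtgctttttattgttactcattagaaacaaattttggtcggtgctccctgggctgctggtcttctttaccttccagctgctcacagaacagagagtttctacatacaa

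The COL4A1 and COL4A2 windows share 226 of their 300 bases and the same single CCAAT box. The COL4A5 and COL4A6 windows share 121 bases, which hold a pair of boxes in both, and COL4A6 has 3. Of all 35116 windows in the table, 34.61% held a CCAAT box, as did 9 of the 30 windows of the 22 chains that the table covers. The AP-1 motif TGANTCA was found in neither strand of these 4 windows. It occurred in 1 of the 30 windows, of COL10A1, and in 7.71% of all. The NF-kB consensus was in 2 of the 30, of COL15A1 and COL6A2, and in 5.91% of all. A match is a run of letters and no measure of binding. The chains without a window in the table were COL1A1, COL1A2, COL2A1, COL3A1, COL5A2, COL6A1, COL8A1, COL9A3 and COL14A1.

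COL4A1 was 7.42, 7.19 and 7.38 under TNFα and 7.01, 6.96 and 7.01 under vehicle in cells with c-Jun siRNA, against 7.33, 7.20 and 7.25 under TNFα and 6.79, 6.73 and 6.80 under vehicle in cells with control siRNA. TNFα arrays lay above vehicle arrays under both siRNAs. TNFα raised it by 0.34 with c-Jun siRNA (adjusted p = 0.000519; with the column as a fixed block 0.28, adjusted p = 0.14) and by 0.48 with control siRNA (adjusted p = 9.02e-06; within column 7 0.46, adjusted p = 0.00251). c-Jun siRNA with vehicle raised it by 0.22 (adjusted p = 0.0178), a call that ended within column 5 (0.19, adjusted p = 0.195), when control siRNA vehicle replicate 2 or c-Jun siRNA vehicle replicate 1 or 3 was left out, and when the column was a fixed block. COL4A2, its partner across the shared promoter, was 8.34, 8.35 and 8.34 under TNFα and 8.27, 8.31 and 8.26 under vehicle in cells with c-Jun siRNA, against 8.45, 8.38 and 8.40 under TNFα and 8.28, 8.19 and 8.34 under vehicle in cells with control siRNA. TNFα raised COL4A2 by 0.14 with control siRNA (adjusted p = 0.0223), which did not pass within column 7 (0.15, adjusted p = 0.077), after centring of the arrays on their medians, or without control siRNA vehicle replicate 2 or control siRNA TNFα replicate 1, and by 0.06 with c-Jun siRNA without passing (adjusted p = 0.365). The COL4A1 minus COL4A2 difference was -1.01 ± 0.13 (SD, n = 3) with c-Jun siRNA and TNFα and -1.29 ± 0.054 with c-Jun siRNA and vehicle, against -1.15 ± 0.032 with control siRNA and TNFα and -1.50 ± 0.035 with control siRNA and vehicle.

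COL4A5 was 6.89, 6.94 and 6.93 under TNFα and 7.19, 7.13 and 7.22 under vehicle in cells with c-Jun siRNA, against 7.63, 7.58 and 7.60 under TNFα and 7.66, 7.79 and 7.60 under vehicle in cells with control siRNA. All c-Jun siRNA arrays lay below all control siRNA arrays, and TNFα separated the arrays with c-Jun siRNA and not those with control siRNA. c-Jun siRNA lowered COL4A5 by a log2 difference of -0.68 with TNFα (62.3% of control, adjusted p = 4.52e-08) and of -0.50 with vehicle (70.5%, adjusted p = 1.91e-06). Within columns, each with 1 array in a group, it was -0.65 (column 7) and -0.72 (column 9) with TNFα, and -0.42 (column 5) with vehicle. The TNFα effect was -0.26 with c-Jun siRNA (adjusted p = 0.00197) and -0.08 with control siRNA (adjusted p = 0.333).

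COL4A6, which faces COL4A5, went the other way with c-Jun siRNA. It was 6.12, 6.13 and 6.10 under TNFα and 6.14, 6.22 and 6.22 under vehicle in cells with c-Jun siRNA, against 6.00, 5.88 and 5.99 under TNFα and 5.92, 5.83 and 5.92 under vehicle in cells with control siRNA. The c-Jun siRNA effect was 0.30 with vehicle (adjusted p = 0.00213; 0.27 within column 5, adjusted p = 0.118) and 0.16 with TNFα, which did not pass (adjusted p = 0.0925). The COL4A6 minus COL4A5 difference was -0.81 ± 0.035 (SD, n = 3) with c-Jun siRNA and TNFα and -0.99 ± 0.067 with c-Jun siRNA and vehicle, against -1.65 ± 0.050 with control siRNA and TNFα and -1.79 ± 0.14 with control siRNA and vehicle. COL4A3 and COL4A4, the third pair, had all 12 values between 4.17 and 4.50, below every array median, and passed in no comparison.

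Among other types, COL12A1 encodes the chain of type XII collagen, which sits on the surface of type I fibrils. It was 9.76, 9.79 and 9.73 under TNFα and 9.72, 9.77 and 9.87 under vehicle in cells with c-Jun siRNA, against 9.70, 9.75 and 9.76 under TNFα and 9.49, 9.51 and 9.42 under vehicle in cells with control siRNA. The 3 control siRNA vehicle arrays lay below the other 9, whose groups overlapped one another. TNFα raised COL12A1 by 0.26 with control siRNA (adjusted p = 5.42e-05; 0.25 within column 7, adjusted p = 0.00228), and its effect with c-Jun siRNA was -0.03 (adjusted p = 0.707). c-Jun siRNA raised it by 0.31 with vehicle (adjusted p = 1.03e-05), and by 0.37 within column 5, against 1 control siRNA array. Its effect with TNFα was 0.03 (adjusted p = 0.739). The interaction of -0.29 stayed between -0.32 and -0.25 over the alternatives, with adjusted p from 0.00199 to 0.029.

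COL21A1 encodes type XXI collagen, a fibril-associated type. It was 4.78, 4.78 and 4.88 under TNFα and 5.02, 5.03 and 5.11 under vehicle in cells with c-Jun siRNA, against 5.40, 5.43 and 5.26 under TNFα and 5.82, 5.96 and 5.81 under vehicle in cells with control siRNA. The 4 groups did not overlap, and only the control siRNA vehicle arrays were above the array medians, so background limits how exactly the differences are known. c-Jun siRNA lowered COL21A1 by a log2 difference of -0.55 with TNFα (adjusted p = 1.48e-05) and of -0.81 with vehicle (57.0% of control, adjusted p = 1.26e-07). Within columns, each with 1 array in a group, it was -0.57 (column 7) and -0.57 (column 9) with TNFα, and -0.76 (column 5) with vehicle. TNFα changed it by -0.24 with c-Jun siRNA (adjusted p = 0.0203), a call lost with a floor at 5, with the column as a fixed block, and without c-Jun siRNA vehicle replicate 3 or c-Jun siRNA TNFα replicate 1 or 2, and by -0.50 with control siRNA (adjusted p = 3.04e-05; -0.55 within column 7, adjusted p = 0.00681).

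COL13A1, a collagen that spans the plasma membrane, was the most variable of the called chains. It was 5.02, 5.57 and 5.12 under TNFα and 5.55, 5.22 and 5.48 under vehicle in cells with c-Jun siRNA, against 5.54, 5.72 and 5.51 under TNFα and 6.13, 6.11 and 5.80 under vehicle in cells with control siRNA. With TNFα, replicate 2 of c-Jun siRNA lay among the control siRNA arrays. c-Jun siRNA changed COL13A1 by -0.59 with vehicle (adjusted p = 0.00162; -0.38 within column 5, adjusted p = 0.185), and TNFα with control siRNA changed it by -0.42 (adjusted p = 0.0161; -0.50 within column 7, adjusted p = 0.00916). This TNFα call ended in 6 of 28 alternatives (highest adjusted p = 0.0775), namely both floors and without control siRNA vehicle replicate 1 or 2 or control siRNA TNFα replicate 1 or 3. The call for c-Jun siRNA with TNFα (-0.36, adjusted p = 0.0483) held in 11 of 29 alternatives, with values from -0.52 to -0.05. Within columns it was -0.05 (column 7, adjusted p = 0.85) and -0.47 (column 9, adjusted p = 0.125).

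COL15A1 encodes the chain of type XV collagen, a multiplexin at the edge of basement membranes. It was 8.97, 8.94 and 8.97 under TNFα and 9.43, 9.28 and 9.38 under vehicle in cells with c-Jun siRNA, against 8.99, 8.85 and 8.88 under TNFα and 9.11, 9.19 and 9.22 under vehicle in cells with control siRNA. TNFα changed COL15A1 by -0.40 with c-Jun siRNA (adjusted p = 2e-06) and by -0.27 with control siRNA (adjusted p = 0.000174; -0.28 within column 7, adjusted p = 0.00398), and the interaction did not pass (-0.14 ± 0.067, adjusted p = 0.324). c-Jun siRNA raised it by 0.19 with vehicle (adjusted p = 0.00553; 0.14 within column 5, adjusted p = 0.274). The beaded-filament chains moved less. COL6A1 rose by 0.18 ± 0.041 with c-Jun siRNA and vehicle and by 0.13 ± 0.041 with TNFα and control siRNA. COL6A2 was higher with c-Jun siRNA by 0.16 ± 0.045 with TNFα and by 0.14 ± 0.045 with vehicle. Within column 7 the TNFα effect on COL6A1 was 0.12 and did not pass (adjusted p = 0.101). Within columns with 1 array in a group, the c-Jun siRNA effect with vehicle was 0.17 for COL6A1 and 0.14 for COL6A2 (column 5). With TNFα that on COL6A2 was 0.11 (column 7) and 0.18 (column 9). Both COL6A1 calls and the COL6A2 call with vehicle ended with the column as a fixed block.

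**Figure D3:**
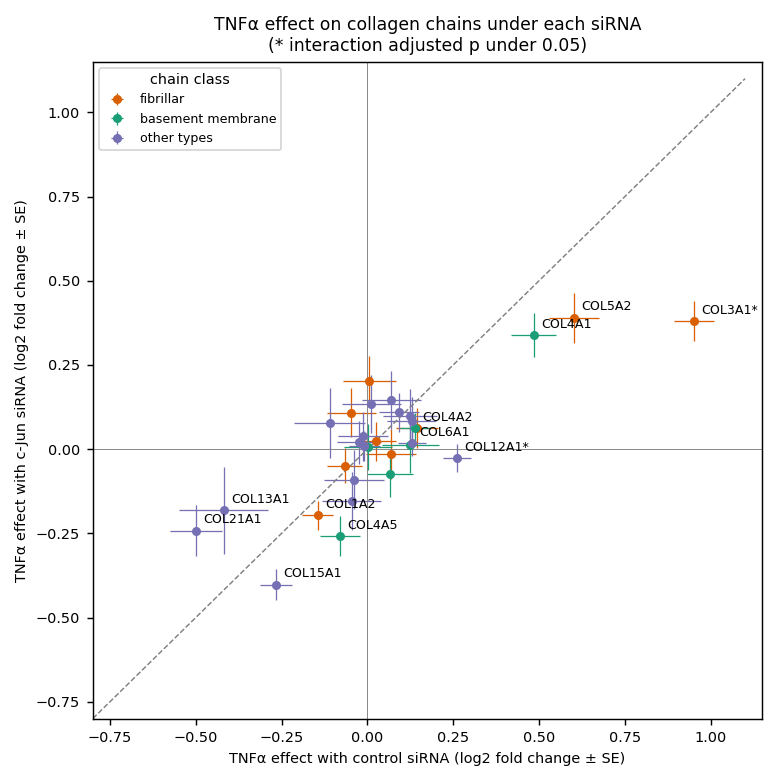
TNFα effect on each of the 31 chains with c-Jun siRNA (vertical axis) against that with control siRNA (horizontal axis), as log2 fold change ± SE, coloured by class, with a dashed line where both are equal. Chains called in either comparison are named and an asterisk marks a called interaction: COL3A1 and COL12A1 lie below the line.

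The 18 chains called in no comparison were COL1A1, COL2A1, COL5A1, COL5A3, COL11A1 and COL27A1 (fibrillar), COL4A3 and COL4A4 (basement membrane), and COL6A3, COL8A1, COL8A2, COL9A1, COL9A2, COL9A3, COL10A1, COL14A1, COL16A1 and COL18A1 (other types). Their log2 fold changes with TNFα ran from -0.15 (COL8A1) to 0.20 (COL27A1) with c-Jun siRNA and from -0.11 (COL9A3) to 0.14 (COL1A1) with control siRNA. Those with c-Jun siRNA ran from -0.11 (COL18A1) to 0.13 (COL16A1) with TNFα and from -0.17 (COL18A1) to 0.11 (COL2A1) with vehicle. An unadjusted p under 0.05 was reached by 1 of the 18 in each TNFα comparison and for c-Jun siRNA with vehicle, and by 0 in the other comparisons. In all, 13 of the 31 chains were called in at least 1 comparison, against 51.9% of all genes. Of the 17 chains with a 12-array mean at or above the lowest array median 11 were called, against 74.7% of such genes, and of the 14 below it 2 were called, COL13A1 and COL21A1, against 14.4%. By rank alone, the arrays of the compared groups did not overlap for 12 chains for TNFα with control siRNA (45.3% of all genes), 10 for TNFα with c-Jun siRNA (38.9%), 9 for c-Jun siRNA with TNFα (38.5%) and 13 for c-Jun siRNA with vehicle (39.2%). A further 11 collagen genes outside the list were called in no comparison, and 2 of them had an unadjusted p under 0.05 for c-Jun siRNA with TNFα.

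Procollagen chains are hydroxylated, glycosylated and folded in the endoplasmic reticulum before export. Of 19 measured genes for these steps (2 of the list not analysed here), c-Jun siRNA raised 13 with TNFα and 14 with vehicle and lowered none, where the all-gene shares of higher calls were 14.1% and 14.4%. All 19 had 12-array means above every array median, and brighter genes were called more often. In at least 1 comparison, 74.7% of genes at or above the lowest array median were called, against 14.4% below it. The median log2 fold changes of the 19 were 0.22 with TNFα and 0.20 with vehicle, against 0.00 and -0.01 over all genes. PLOD2, the lysyl hydroxylase of the telopeptides that form crosslinks, rose by 0.79 with TNFα and 0.76 with vehicle. The prolyl 4-hydroxylase subunit P4HA2 rose by 0.57 and 0.35 (with vehicle 0.26 within column 5, adjusted p = 0.0577), P4HA1 rose by 0.42 with TNFα, and the prolyl 3-hydroxylase P3H1 by 0.32 with TNFα. With vehicle TMEM38B, an endoplasmic reticulum ion channel, rose by 0.69, and the prolyl 3-hydroxylase P3H2 by 0.56. The collagen chaperone SERPINH1 did not pass with c-Jun siRNA (-0.06 with TNFα, adjusted p = 0.108, and -0.02 with vehicle, adjusted p = 0.69).

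TNFα lowered 10 of these 19 genes and raised 2 with c-Jun siRNA, and lowered 12 and raised 2 with control siRNA, where 18.3% of all genes were lower and 11.3% higher with c-Jun siRNA, and 21.9% lower and 13.8% higher with control siRNA. P3H4, a partner of lysyl hydroxylase, fell by 0.29 and 0.39 on the log2 scale under c-Jun and control siRNA, and P4HA1 fell by 0.25 and 0.35. The P3H4 call with c-Jun siRNA ended with the column as a fixed block (adjusted p = 0.123). FKBP14, a prolyl isomerase, fell by 0.40 with c-Jun siRNA. P3H2 rose by 0.24 with c-Jun siRNA and 0.60 with control siRNA, and TMEM38B rose by 0.42 with control siRNA. The interaction was called for 3 of the 19, all lower (P3H2, TMEM38B and FKBP14), where 5.47% of all genes were called. The FKBP14 call ended with the column as a fixed block (adjusted p = 0.129).

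**Figure D4:**
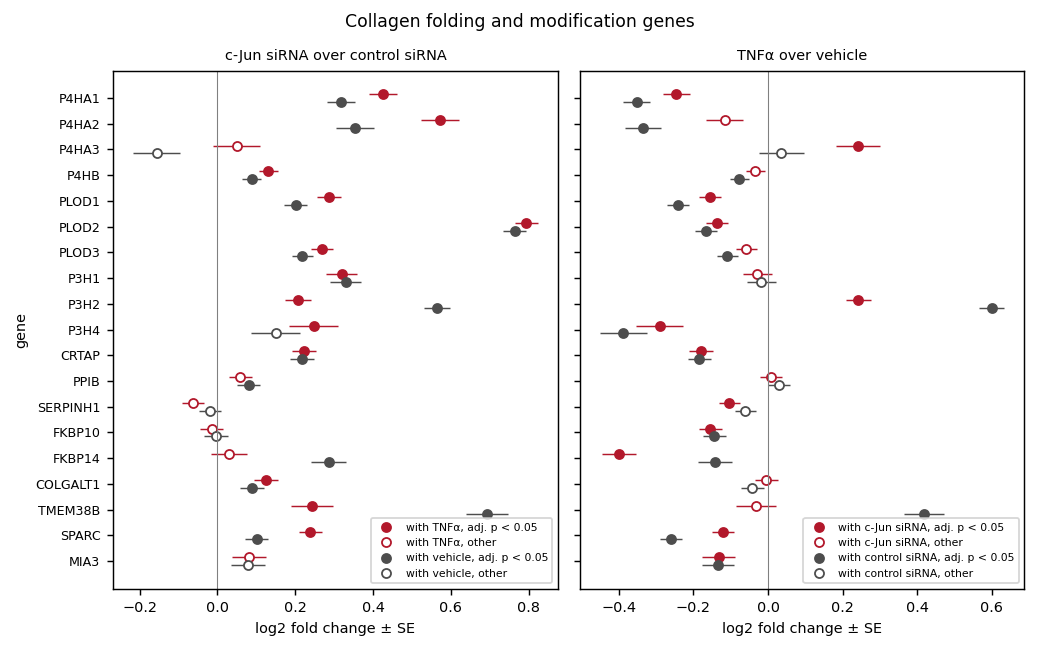
Log2 fold change ± SE of 19 collagen folding and modification genes for c-Jun siRNA over control siRNA (left) and TNFα over vehicle (right). Filled points had a limma adjusted p under 0.05, and in the left panel every filled point lies to the right of 0.

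Cleavage of the propeptides and crosslinking follow secretion. Of 14 measured genes (1 not analysed here), c-Jun siRNA raised 3 and lowered 2 with TNFα and raised 3 and lowered 3 with vehicle, while TNFα raised 1 and lowered 4 with c-Jun siRNA and raised 3 and lowered 5 with control siRNA. Over all genes, 28.5% and 28.9% were called for c-Jun siRNA with TNFα and with vehicle, and 29.6% and 35.7% for TNFα with c-Jun siRNA and with control siRNA. The procollagen N-proteinases diverged with c-Jun siRNA. ADAMTS14 changed by -1.10 with TNFα and by -1.85 with vehicle, ADAMTS3 rose by 0.82 and 1.35, and ADAMTS2 by 0.34 and 0.57. LOXL2, a crosslinking oxidase, rose by 0.37 with c-Jun siRNA and TNFα, and PCOLCE, the enhancer of C-propeptide removal, changed by -0.36 with c-Jun siRNA and vehicle, a call that ended with the column as a fixed block and within column 5 (-0.29, adjusted p = 0.0884). TNFα raised the crosslinking oxidase LOX by 0.38 with c-Jun siRNA and 0.74 with control siRNA, changed PCOLCE by -0.31 and -0.50, and with control siRNA raised ADAMTS3 by 0.69 and changed ADAMTS14 by -0.84. With c-Jun siRNA it also changed LOXL1 by -0.37 and ADAMTS2 by -0.30, and both calls ended with the column as a fixed block (adjusted p = 0.0676 and 0.066).

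Of 10 genes for collagen degradation and uptake, c-Jun siRNA raised 2 and lowered 7 with TNFα and raised 1 and lowered 3 with vehicle, and TNFα raised 3 and lowered 4 with c-Jun siRNA and raised 4 and lowered 4 with control siRNA. Over all genes the shares higher and lower were 14.1% and 14.4% for c-Jun siRNA with TNFα and 14.4% and 14.5% with vehicle, and 11.3% and 18.3% for TNFα with c-Jun siRNA and 13.8% and 21.9% with control siRNA. The collagenase MMP1 rose with TNFα by 1.96 with c-Jun siRNA and 2.63 with control siRNA, and with control siRNA the gelatinase MMP9 rose by 1.44. The collagenase MMP13 was called higher for TNFα with control siRNA and lower for c-Jun siRNA with TNFα. But its group means of 3.91 to 4.53 lay below every array median and a floor at 5 left no difference, so no fold is given for these calls. Under TNFα, c-Jun siRNA changed MMP9 by -1.11 and MMP2 by -0.58, and raised the fibroblast activation protease FAP by 0.69. Under vehicle it changed MMP14, the membrane-bound collagenase, by -0.67, MMP2 by -0.37 and the lysosomal protease CTSK by -0.35 (adjusted p = 0.0843 within column 5), and raised FAP by 0.66. TNFα with c-Jun siRNA changed MMP2 by -0.50, the collagen uptake receptor MRC2 by -0.42 and CTSK by -0.36 (adjusted p = 0.128 for CTSK with the column as a fixed block), and TNFα with control siRNA changed CTSK by -0.35.

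Of 8 measured collagen receptors (1 not analysed here), c-Jun siRNA raised 1 and lowered 2 with TNFα and raised 2 and lowered 2 with vehicle, where 28.5% and 28.9% of all genes were called. The collagen-binding integrin subunit ITGA10 changed by -0.58 and -0.79, and the receptor kinase DDR2, which binds fibrillar collagen, rose by 0.53 and 0.43. DDR1 changed by -0.25 with TNFα and did not pass within column 7 or 9. With vehicle ITGA11 rose by 0.33 (adjusted p = 0.0874 within column 5) and ITGB1 changed by -0.17, a call that ended with the column as a fixed block and within column 5 (-0.10, adjusted p = 0.522). TNFα raised 1 and lowered 3 receptors with c-Jun siRNA and lowered 2 with control siRNA, where 29.6% and 35.7% of all genes were called. It changed ITGA10 by -0.61 and -0.81 and DDR1 by -0.56 and -0.33 with c-Jun and control siRNA, and with c-Jun siRNA ITGA11 by -0.28, which ended with the column as a fixed block (adjusted p = 0.298). LAIR1, whose group means of 3.91 to 4.13 lay below every array median, was called higher by TNFα with c-Jun siRNA, and this held in 17 of 26 alternatives. The call ended with that block, with a floor at 4, after centring of the arrays on their medians, with c-Jun siRNA TNFα replicates 1 and 3 averaged (adjusted p = 0.0923) and without replicate 1 or 2 of c-Jun siRNA vehicle or replicate 1 or 3 of c-Jun siRNA TNFα, and a floor at 5 left no difference.

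Transforming growth factor beta is a known inducer of collagen genes. Of 7 measured ligands, receptors and response genes (1 not analysed here), c-Jun siRNA raised 3 and lowered 2 with TNFα and raised 4 with vehicle, where 28.5% and 28.9% of all genes were called. The response genes CCN2 and TGFBI rose by 1.17 and 0.51 with TNFα and by 1.20 and 0.46 with vehicle. The other measured response gene, SMAD7, was called lower with TNFα and was not called with vehicle. The receptor TGFBR2 rose by 0.23 with TNFα and 0.36 with vehicle, TGFBR1 by 0.22 with vehicle (adjusted p = 0.0683 within column 5), and the ligand TGFB2 changed by -0.36 with TNFα. TNFα lowered 4 of the 7 with c-Jun siRNA and 3 with control siRNA, and raised none, where 18.3% and 21.9% of all genes were lower. TGFBR2 changed by -0.72 and -0.60, TGFB2 by -0.71 and -0.47 and TGFB1 by -0.23 and -0.31 with c-Jun and control siRNA, and TGFBR1 by -0.20 with c-Jun siRNA, which ended with the column as a fixed block (adjusted p = 0.237).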

How the data were processed

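Expression in BT549 total RNA was measured with Affymetrix gene arrays, 3 per group. The deposited values are log2 expression per probe set. Per the submitters' processing notes the authors used Affymetrix Expression Console 1.1 and PLIER, and the role of each is not given in the sources used here. The log base was inferred from values between 2.27 and 13.97, and array quartiles lay within 0.061 of each other. The values were not normalised further. Precision is limited by the array number, and the median standard error was 0.065 for a pairwise log2 fold change and 0.092 for the interaction.

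Of 33297 probe sets, 19181 carried 1 symbol, 2055 several and 12061 none named here. The 17958 genes are those with a single-symbol probe set. The probe set with the highest 12-array mean stood for the 895 genes with more than 1, with no filter on dim genes. limma 3.58.1 in R 4.3.3 fitted 4 group means to all 12 arrays (8 residual degrees of freedom, mean-variance trend). Tests were two-sided, with Benjamini-Hochberg adjustment over all genes of each of 5 comparisons, and a call is an adjusted p under 0.05. The method was tested on simulated data. Tables and plots used Python 3.11.15, pandas 2.3.3 and matplotlib 3.10.9, and promoter windows are RefSeq sequences of GRCh38.p14.

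The members and lists were chosen with earlier results of these data known. Chains were described in full where called with an absolute log2 fold change of at least 0.5 or called for the interaction, and other called chains by their fold changes. Array values of COL1A1, COL4A1, COL4A2, COL4A6 and COL15A1 are given beyond that rule and were chosen after their values were seen. From each companion list, up to 4 called genes with the largest change were named per pairwise comparison. SERPINH1 and SMAD7 were added after their values were seen. Alternatives were floors, other scaling, filters on dim genes, other probe set rules and variance models, fits of the compared groups, stricter thresholds, array position, omission of single arrays, and replicate number as a block.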

Additional observations from a re-analysis of the deposited data

Results flagged for a closer look

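The interaction is the TNFα effect with c-Jun siRNA minus that with control siRNA, tested in the limma fit with adjustment over all 17958 genes. Among the collagen chains it passed for COL3A1 (-0.57 ± 0.082, SE, adjusted p = 0.000187) and COL12A1 (-0.29 ± 0.059, adjusted p = 0.00505). In COL3A1 the TNFα rise was 0.38 with c-Jun siRNA and 0.95 with control siRNA. In COL12A1 the TNFα effect was -0.03 with c-Jun siRNA and 0.26 with control siRNA. JUN itself passed (-0.19, adjusted p = 0.0173), but not with the position column as a fixed block (adjusted p = 0.0554), without the mean-variance trend or without control siRNA TNFα replicate 1, where its highest adjusted p was 0.0806.

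Among companion genes, the interaction passed in the same fit for P3H2 (-0.36), FKBP14 (-0.26), TMEM38B (-0.45), ADAMTS2 (-0.24), ADAMTS3 (-0.53), ADAMTS14 (0.74), LOX (-0.36), MMP1 (-0.67), MMP9 (-1.21), MMP13 (-0.50) and TGFBR1 (-0.23). ADAMTS14 was the one of these 11 with a positive interaction. The TNFα effect on ADAMTS14 was -0.84 with control siRNA and less negative with c-Jun siRNA. Its group means with c-Jun siRNA lay below every array median, so background limits how exactly this difference is known. With the position column as a fixed block, the calls of FKBP14, ADAMTS2, ADAMTS3, ADAMTS14, MMP13 and TGFBR1 ended. A floor at 4 and a floor at 5 each ended the calls of ADAMTS2, ADAMTS3, ADAMTS14, MMP13 and TGFBR1, and a floor at 5 that of FKBP14. The 12-array means of ADAMTS2 (9.21), ADAMTS3 (7.05), FKBP14 (8.95) and TGFBR1 (10.17) lay above both floors. Losing a call there does not mark these 4 genes as dim. ADAMTS2 also ended with the replicate block and held in 14 of 27 alternatives, MMP13 in 14 of 25, TGFBR1 in 17 of 27, FKBP14 in 19 of 27, ADAMTS14 in 20 of 26 and ADAMTS3 in 23 of 27. MMP13 also ended with c-Jun siRNA TNFα replicates 1 and 3 averaged (adjusted p = 0.0532). Its levels lay below every array median and a floor at 5 left no difference, so its value of -0.50 is not a reliable size. Groups of 3 arrays were too small to test single arrays as outliers.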

How the results depend on the processing

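Of the 31 chains, 10 were called for TNFα with control siRNA, 7 for TNFα with c-Jun siRNA, 7 for c-Jun siRNA with TNFα, 10 for c-Jun siRNA with vehicle and 2 for the interaction. With one array left out these counts ran from 6 to 10, 6 to 8, 5 to 7, 8 to 10, and 2 to 2, and the 6 for TNFα with control siRNA came without control siRNA vehicle replicate 2. An adjusted p under 0.01 left 6 chains for TNFα with control siRNA and 4 for c-Jun siRNA with TNFα. A log2 fold change of at least 0.5 besides left 3, 0, 4, 4 and 1 in the same order. Leaving out the dimmest 50% of genes, which keeps 11 of the 31 chains, left 4 for c-Jun siRNA with TNFα. The position column as a fixed block left 2 for TNFα with c-Jun siRNA and 4 for c-Jun siRNA with vehicle. Within single columns, with fewer arrays, c-Jun siRNA with vehicle called 4 (column 5), and c-Jun siRNA with TNFα called 4 (column 7) and 0 (column 9, where limma called 0 of 17958 genes and 4156, 7 chains among them, had an unadjusted p under 0.05). The cause was not tested. No called chain changed direction in an alternative that was run. Same-numbered arrays of different groups did not deviate together (correlations from -0.059 to 0.088). This cannot decide whether the numbers pair samples, because a small shared deviation could go unseen. A replicate block gave 10, 7, 7, 10 and 2 chains. Genes below the array medians, chains and MMP13, LAIR1 and ITGA11 among them, are limited by background, as is ADAMTS14 with c-Jun siRNA.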

Other observations

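Several chains repeated an exact deposited value on several arrays. Of the 31 chains 9 (29.0%) had a value held by at least 3 of the 12 arrays, where 12.1% of all genes had one. COL5A3 read 5.34 on 7 arrays, COL2A1 5.19 on 5 and COL16A1 5.49 on 5. COL4A2 (8.34 on 3 arrays) was the only chain among the 9 that was called in a comparison, for TNFα with control siRNA.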
